A study of Mus musculus with 3 samples.

Results

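The miR-130 and miR-301 family was followed across osteoclast formation in mouse bone marrow cultures, through 4 mature miRNAs chosen by name from the 899 listed: mmu-miR-130a-3p, mmu-miR-130b-3p, mmu-miR-130b-5p and mmu-miR-301a-3p, written without the species prefix from here on. Cells came from the marrow of C57BL/6 mice 11 weeks after birth. Bone marrow macrophages (BMM) were derived from non-adherent marrow cells with M-CSF (50 ng/mL, 72 h), a growth factor of this lineage. Preosteoclasts (pOC) were made from these with M-CSF (30 ng/mL) and RANKL (100 ng/mL), the cytokine that drives osteoclast formation, for 24 h. Mature osteoclasts (mOC) received the same factors for 72 h or longer. All groups shared exposure to the bisphosphonate alendronate (500 µM, 12 h), given per the labels so that cells shed apoptotic bodies, whereas the series itself speaks of exosomes. The sources used here do not settle which fraction was sequenced, cells or what they shed, so levels may not be those of whole cells. Each of the 3 groups was 1 library, and the sources used here do not say whether animals were pooled. The tables set pOC and mOC beside a library headed R, which no label spells out, so the counts of R and of BMM are not analysed here and R enters through the authors' fold changes alone.

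A miRNA is cut from a hairpin with a 5p and a 3p arm, and bases 2 to 8 of the mature strand, the seed, select the messenger RNAs it represses. In this family the 3p arms carry 1 common seed and are the strands usually retained. As background, in human cancer cells miR-301a represses NKRF, an inhibitor of the NF-kB pathway that RANKL also uses. Messenger RNAs were not analysed here.

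The mature sequences are shown because the members fall into 2 seed groups that the names do not reveal. All 4 were found in the RefSeq table for GRCm38, as were 793 of the 899 listed miRNAs. Capitals mark the seed:
miR-130a-3p: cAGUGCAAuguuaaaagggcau
miR-130b-3p: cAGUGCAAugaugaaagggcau
miR-301a-3p: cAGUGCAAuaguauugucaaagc
miR-130b-5p: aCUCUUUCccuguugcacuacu

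The 3 members from 3p arms began with the same 9 bases. miR-130a-3p and miR-130b-3p were identical at 20 of 22 positions, and differed by U11A and A13G (the base of miR-130a-3p, the position counted from the 5′ end, the base of miR-130b-3p). How reads that match both were assigned is not given in the sources used here, so the smaller count of this pair, that of miR-130a-3p, is uncertain. miR-301a-3p matched miR-130a-3p at 12 of 22 positions and miR-130b-3p at 11, with all differences after the shared start. Of 7 mature miRNAs with this seed in the RefSeq table, these 3 were listed. miR-301b-3p, also listed, has no mature entry in the RefSeq table, so its seed and its likeness to miR-301a-3p were not examined. How reads that match both would be assigned is not given either, so the split of counts between miR-301a-3p and miR-301b-3p is uncertain. Among the 793 listed miRNAs with a mature sequence in the RefSeq table, miR-130b-5p was the 1 with its own seed.

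Hairpins of the family are shown for Mir130b, both of whose arms are members, and for Mir301, the gene of miR-301a, as a contrast. Capitals mark the 5p arm (first) and the 3p arm (second):
Mir130b: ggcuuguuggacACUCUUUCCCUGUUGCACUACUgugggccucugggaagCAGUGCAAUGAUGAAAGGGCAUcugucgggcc
Mir301: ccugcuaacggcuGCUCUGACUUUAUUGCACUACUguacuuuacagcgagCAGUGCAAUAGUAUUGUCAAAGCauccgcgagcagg

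The 5p arms of Mir130b, Mir301 and Mir301b ended in the same 10 bases, UUGCACUACU, of which the first 7 are the reverse complement of the 3p seed. Mir130b lies at chr16:17124061-17124142 (GRCm38, minus strand), in an intron of the protein-coding gene 2610318N02Rik on the same strand. Mir301b lies 257 bases away, at chr16:17124400-17124496, also in an intron of that gene. Mir301 lies at chr11:87113004-87113089 on the plus strand, in an intron of Ska2, which encodes a protein of the spindle and kinetochore. Mir130a, at chr2:84741115-84741178 on the minus strand, lies between genes, 991 bases from Gm19426 and 2460 from Ypel4.

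The pOC library held 5430426 counts and the mOC library 7017707. Levels are given as CPM, the count scaled to a column total of 1000000, with exact binomial 95% intervals that cover counting error only. With 1 library per stage no difference has a replicate check, so spread between cultures is unknown. Protein markers of macrophages and osteoclasts cannot be read from miRNA tables. Of miRNA markers, 4 of 4 myeloid ones were detected in both libraries, with summed levels of 5480 CPM in pOC and 9233 CPM in mOC. By the rule given below, 2 of these 4 were called higher in mOC, miR-223-3p and miR-142a-3p, and none lower. Erythroid markers summed to 842 CPM in pOC and 299 CPM in mOC, with 4 of 5 lower in mOC by the rule given below. Stromal markers summed to 1400 and 1240 CPM, with 5 of 7 lower. Liver and serum markers summed to 2768 and 952 CPM, with 1 lower of the 3 that passed the count minimum. Over all 560 miRNAs that passed this minimum, 12.3% were called lower and 8.75% higher. Endothelial markers summed to 153 and 95.05 CPM and the lymphoid marker miR-150-5p to 3.13 and 2.85 CPM. The only marker at 0 was miR-122-3p, in mOC. The part of these sources in the values of the 4 members was not tested. In bulk libraries like these, whatever fraction they hold, fewer source cells of a type and less RNA from each cannot be told apart.

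In both libraries miR-130b-3p, a strand with the common 3p seed, was by far the most abundant member. It had 2993 counts in pOC, or 551 CPM (532 to 571), and 3372 counts in mOC, or 480 CPM (464 to 497). It ranked 89 of 899 miRNAs in pOC and 99 in mOC. The 2 intervals do not overlap, but the level in mOC was only 12.8% lower, a fold of 0.872 (0.830 to 0.916).

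The other strand of the same hairpin, miR-130b-5p, was scarce in pOC and far more abundant in mOC. It had 59 counts in pOC (10.9 CPM, 8.27 to 14.0) and 246 in mOC (35.1 CPM, 30.8 to 39.7). mOC was thus 3.23-fold higher (2.42 to 4.36), well beyond counting error. Its rank was 297 in pOC and 221 in mOC.

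miR-301a-3p, from the Ska2 intron, had 66 counts in pOC (12.2 CPM, 9.40 to 15.5) and 168 in mOC (23.9 CPM, 20.5 to 27.8). It was 1.97-fold higher in mOC (1.47 to 2.66), which is just short of 2-fold. Its intervals do not overlap between the libraries. The other arm, miR-301a-5p, had 44 and 110 counts and was 1.93-fold higher in mOC (1.35 to 2.81), so the arms of this hairpin differed between the libraries to a like degree.

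The scarcest member in both libraries was miR-130a-3p. It had 34 counts in pOC (6.26 CPM, 4.34 to 8.75) and 13 in mOC (1.85 CPM, 0.986 to 3.17), 3.38-fold lower in mOC with a wide interval of 1.74 to 6.98. It made up 1.12% (0.779 to 1.57%) of the counts of miR-130a-3p and miR-130b-3p together in pOC and 0.384% (0.205 to 0.656%) in mOC. Of the stromal markers 5 of 7 were called lower in mOC as well, against 12.3% of the 560 miRNAs that passed the count minimum. Not called were miR-199a-3p (log2 ratio 0.09), the most abundant of the 7, and miR-199a-5p (0.31). Of the erythroid markers 4 of 5 were called lower, all but miR-144-3p (-0.28), and of the liver and serum markers miR-122-5p (-2.32). Their part in the value of miR-130a-3p was not tested.

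**Figure D1:**
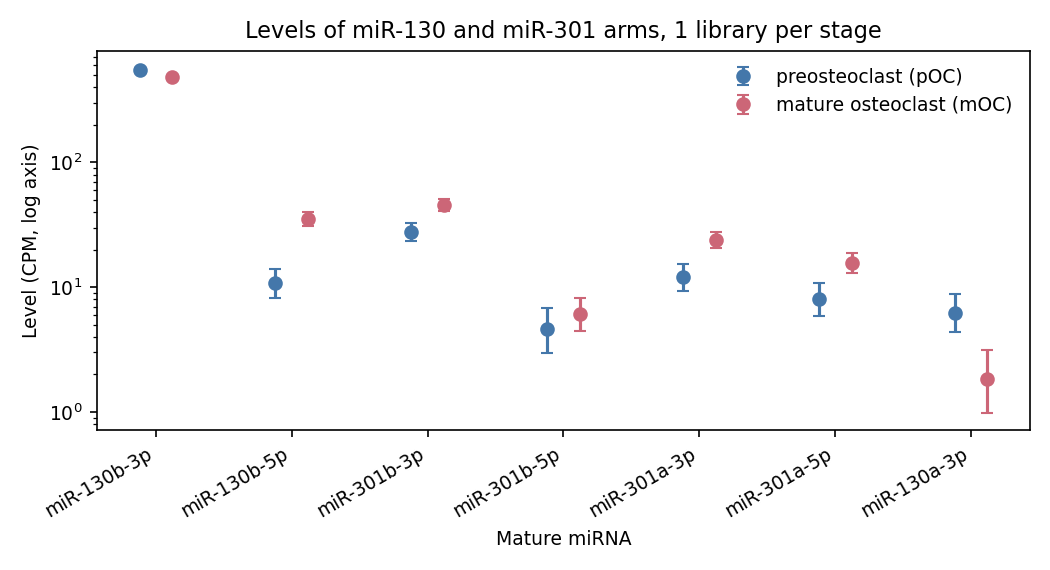
Level of each miR-130 and miR-301 arm (CPM, log axis) in the pOC library (blue) and the mOC library (red), 1 library each, with exact 95% counting intervals as bars. miR-130b-3p lies near 500 CPM in both, miR-130b-5p and both miR-301a arms lie higher in mOC, and miR-130a-3p lies lower in mOC.

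Below the first place, the order of levels was resolved in mOC but not fully in pOC. In pOC miR-301a-3p and miR-130b-5p had overlapping intervals and could not be ordered. miR-130a-3p came last there, but its interval overlapped that of miR-130b-5p. In mOC miR-130b-5p stood above miR-301a-3p, and miR-301a-3p above miR-130a-3p, each without overlap of intervals. Mature lengths of 22 to 23 bases make counts comparable in length, although capture in a library may still differ between sequences.

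To place these differences among all miRNAs, a call of higher or lower was made where the log2 ratio reached 1 in size, the libraries together had 10 counts or more, and the counting interval excluded equal levels. On the log2 scale, with a pseudocount of 1 count, the ratio of mOC over pOC was 1.68 for miR-130b-5p, 0.97 for miR-301a-3p, -0.20 for miR-130b-3p and -1.67 for miR-130a-3p. Of the 4 members, 1 was called higher, against 8.75% of the 560 miRNAs that passed the minimum, and 1 lower, against 12.3%. The median ratio of the 4 was 0.39, beside 0.04 over the 560. With 4 members that lie on both sides of 0, neither the counts nor the median sets the group apart. All calls together were 41.5% higher, and 62.0% when the constants of the authors set the scale. That scaling moved the median of the 560 to 0.31 and put miR-301a-3p at 1.24, past the threshold, and miR-130b-3p at 0.07. Relative to the median, miR-130b-3p was at -0.24 under either scaling. This holds by construction, since a scaling shifts every ratio and the median nearly alike, so it is no sign of stability.

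**Figure D2:**
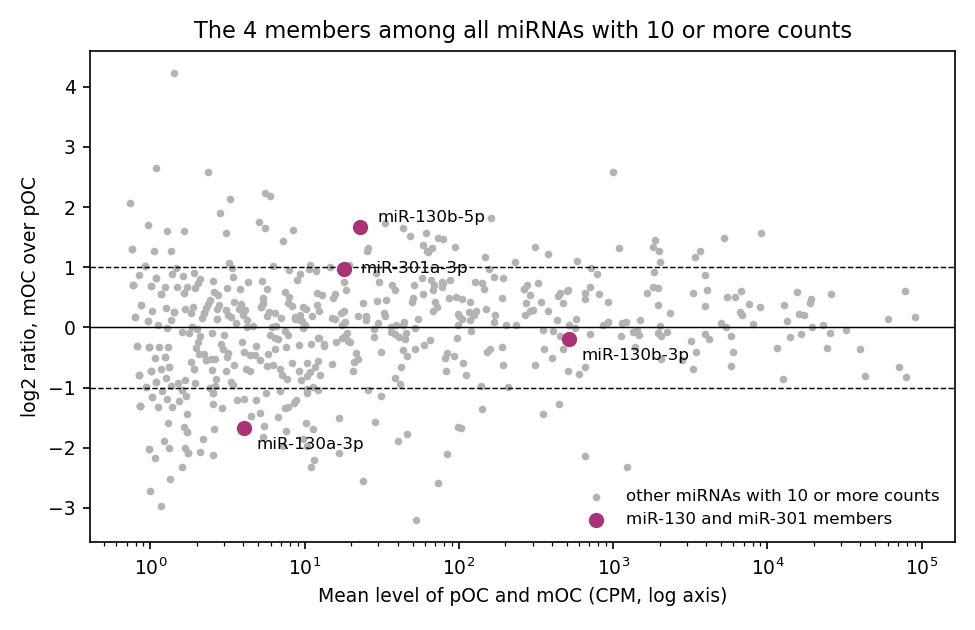
log2 ratio of mOC over pOC (vertical) against the mean level of both libraries (CPM, log axis) for the 560 miRNAs with at least 10 counts, with the 4 members in purple and dashed lines at a 2-fold difference. miR-130b-5p lies above the upper line at 1.68, miR-301a-3p just under it at 0.97, miR-130b-3p near 0 and miR-130a-3p below the lower line at -1.67.

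Summed, the 3 listed miRNAs whose mature sequence in the RefSeq table holds the common 3p seed came to 570 CPM in pOC and 506 CPM in mOC, a fold of 0.889 (0.847 to 0.933). With the libraries scaled by the constants of the authors, the log2 ratio of this sum was 0.10 in place of -0.17, so its direction depends on the scaling. miR-130b-3p held 96.8% of it in pOC and 94.9% in mOC. With miR-301b-3p added by name, the sum was 597 CPM in pOC and 552 CPM in mOC, a fold of 0.923 (0.881 to 0.968). In this wider sum miR-130b-3p held 92.3% and 87.1%, and miR-301b-3p 4.65% (3.96 to 5.44%) and 8.21% (7.37 to 9.12%). In the sum of 3, the shares of the minor members differed in opposite directions. miR-130a-3p made up 1.10% (0.762 to 1.53%) in pOC and 0.366% (0.195 to 0.625%) in mOC, while miR-301a-3p made up 2.13% (1.65 to 2.71%) and 4.73% (4.05 to 5.48%). Without miR-130b-3p the remaining pair was 1.40-fold higher in mOC (1.09 to 1.81), so the direction of the sum also rests on that miRNA.

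Because both arms come from 1 hairpin, their ratio within a library needs no scaling. For Mir130b the 3p arm took 98.1% of the counts of both arms in pOC (97.5 to 98.5%) and 93.2% in mOC (92.3 to 94.0%). That is 50.7 counts of the 3p arm for each 5p count in pOC and 13.7 in mOC. The odds of 3p over 5p were 3.70-fold lower in mOC (exact conditional 95% interval 2.76 to 5.03, counting error only).

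The Mir301 hairpin showed no such difference at this depth. Its 3p arm took 60.0% in pOC (50.2 to 69.2%) and 60.4% in mOC (54.4 to 66.2%), with an odds ratio of 1.02 (0.631 to 1.64). For Mir301b, the neighbour of Mir130b, which was added after its values were seen, the 3p arm took 85.8% in pOC (79.7 to 90.6%) and 88.1% in mOC (84.3 to 91.2%), with an odds ratio of 1.22 (0.689 to 2.14). Both of these intervals exclude a 2-fold lower ratio in mOC, while that of Mir130b excludes equality. Across the 134 hairpins with at least 10 counts for each arm, the same 2-fold rule put 15.7% toward the 5p arm in mOC and 9.70% toward the 3p arm. Ordered by odds ratio, Mir130b was number 4 of the 134 from the 5p end, Mir301 number 76 and Mir301b number 87.

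**Figure D3:**
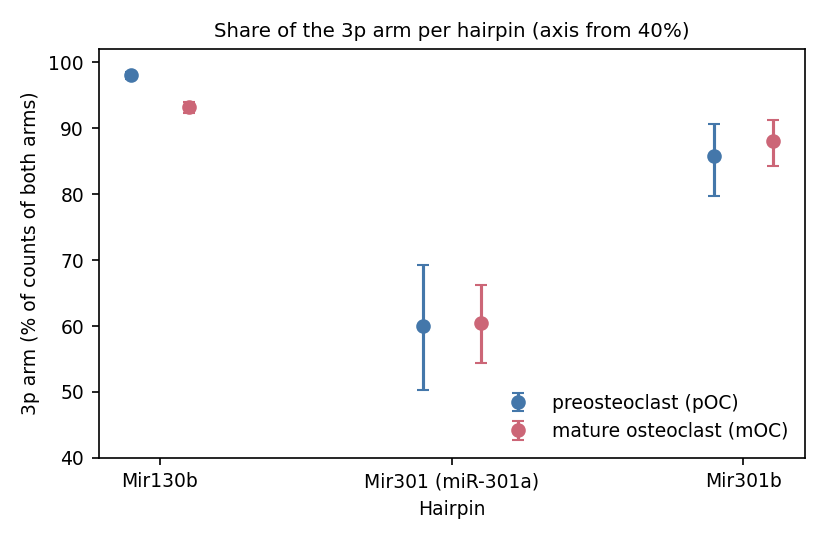
Share of the 3p arm in the counts of both arms (%, axis from 40) for the hairpins Mir130b, Mir301 and Mir301b in the pOC library (blue) and the mOC library (red), with exact 95% counting intervals. The share of Mir130b is 98.1% in pOC and 93.2% in mOC without overlap, and the intervals of the other hairpins overlap between the libraries.

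The arms of Mir301b were both higher in mOC by value, 1 of them beyond counting error. miR-301b-3p had 151 counts in pOC (27.8 CPM, 23.5 to 32.6) and 318 in mOC (45.3 CPM, 40.5 to 50.6), 1.63-fold higher in mOC (1.34 to 1.99). miR-301b-5p had 25 and 43 counts, 1.33-fold higher with an interval of 0.795 to 2.27 that includes equality. So miR-130b-3p and miR-301b-3p, cut from intronic hairpins 257 bases apart in 1 gene, had mOC over pOC folds whose counting intervals do not overlap. A scaling moves both folds alike, so this gap does not depend on it. The split of reads between miR-301b-3p and miR-301a-3p, which was not examined, may affect the gap.

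The authors' comparisons with the library headed R share that library, so the 2 sets of values are given side by side and are not independent. The authors' deposited table gave miR-130b-5p a log2 fold change of -0.31 for pOC and 1.33 for mOC over R. For miR-130b-3p the authors' deposited table had -0.21 and -0.45, both small. By value, miR-130b-5p was thus above R only in mOC. miR-130b-3p was below R in both by value, with neither difference reaching 2-fold.

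For miR-301a-3p the values in the authors' deposited table were -0.97 for pOC and -0.04 for mOC. Its lower level was thus seen in pOC, while mOC and R were nearly equal. miR-301a-5p followed with -0.65 and 0.26 in the authors' deposited table. miR-130a-3p had the reverse pattern in the authors' deposited table, 1.26 for pOC and -0.53 for mOC.

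The arms of Mir301b were placed apart. In the authors' deposited table miR-301b-3p stood at -0.67 and -0.01, close to miR-301a-3p, whereas miR-301b-5p stood at 1.20 and 1.57, on few counts.

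By the authors' rule, a log2 fold change of 1 or more in size with a p-value under 0.05, the authors' deposited table called 1 of the 4 members higher in pOC than R, miR-130a-3p, against 6.56% of all 899. It called 1 higher in mOC than R, miR-130b-5p, against 5.78%, and none lower, against 4.12% in pOC and 6.23% in mOC. In the authors' deposited table of pOC over mOC, miR-130a-3p was called higher (7.90% of all) and miR-130b-5p lower (5.67%), while miR-301a-3p at -0.98 fell just outside. Those p-values rest on an assumed spread, since no replicate measured it.

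**Figure D4:**
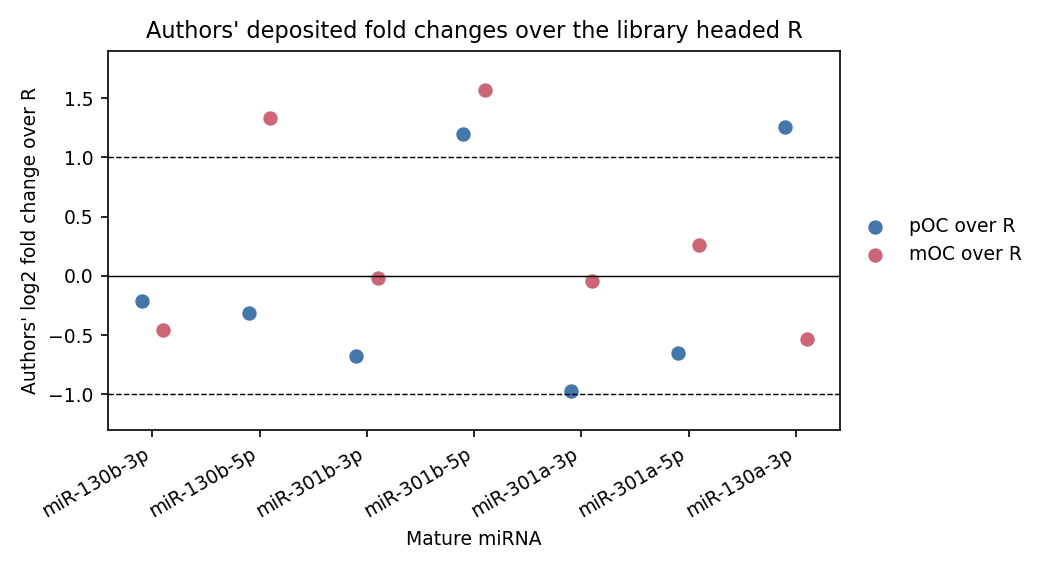
The authors' log2 fold change over the library headed R for each miR-130 and miR-301 arm, with pOC in blue, mOC in red and dashed lines at a 2-fold difference, with no error because each stage was 1 library. miR-130b-5p is above the upper line in mOC alone (1.33), miR-130a-3p in pOC alone (1.26), and miR-301b-5p in both.

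The miRNAs with the most similar pattern were sought among 337 with at least 50 counts in a library, by the distance between their fold changes over R in the authors' deposited tables, which cover 3 libraries. miR-130b-3p was nearest to miR-877-5p (distance 0.02 on the log2 scale) and miR-1198-5p (0.10). The nearest to miR-301a-3p were miR-201-5p (0.04) and miR-30d-3p (0.17), and to miR-130b-5p miR-26a-5p (0.17) and miR-491-5p (0.21). miR-130a-3p was nearest to miR-214-3p (0.25) and to miR-148a-3p (0.34), both farther off than the nearest 2 of any other member. None of the members with 50 or more counts was among the nearest 2 of another.

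Among the listed miRNAs with a RefSeq sequence, miR-148a-3p is also 1 of 6 with 6 of the 7 seed bases at a shifted or shortened position. The others were miR-148b-3p, miR-152-3p, miR-19a-3p, miR-19b-3p and miR-350-5p. The log2 ratios of mOC over pOC of these 6 ran from -2.13 for miR-148a-3p to 0.28 for miR-152-3p. Of these 6, 1 was called lower, against 12.3% of the 560 miRNAs that passed the minimum, and none higher, against 8.75%. miR-19b-3p, the most abundant, had 34334 and 51462 counts (0.21), and miR-148b-3p 24138 and 27305 (-0.19).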

How the data were processed

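The authors deposited 9 tables covering 3 comparisons, with 899 mature miRNAs in each full table. Per the file headers, the deposited raw values are read counts per miRNA, whole numbers whose totals differ between the libraries. Beside them stand the authors' normalised counts, taken as a score, which are the raw count over 1 constant per library, times 1000000. The constants were 4803435 for pOC and 5139860 for mOC, which makes the raw totals 1.13 and 1.37 times as large. Per the file headers, the other columns used are the authors' log2 fold change and p-value. The submitters' processing notes name FastQC, HISAT2, StringTie and GRCm38. Of the counter, annotation release and kit, the sources used here say nothing.

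Columns were matched by name, POC to pOC and OC to mOC, and R was matched to no sample. Of 36 per-sample columns 30 were not used, and 2 repeated count columns were identical to those used. The comparison planned with BMM was therefore not made, and the authors' fold changes over R are given instead, with no claim about what R is. Their lists were rebuilt exactly by a log2 fold change of 1 or more in size together with a p-value under 0.05. The edgeR exact test (version 4.0.16) with TMM scaling and an assumed dispersion of 0.01 rebuilt the pOC over mOC values of 899 of 899 miRNAs (log2 within 0.001, p-values within 1%).

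Counts were scaled to column totals, and the log2 ratio had 1 count, scaled by library size, added to each side. Fold intervals are exact Clopper-Pearson binomial intervals of the 2 counts, and arm odds ratios are exact conditional estimates (scipy 1.17.1). All intervals cover counting error only, because they treat each read as a separate molecule and no replicate measured other spread. Whether molecular identifiers were used is not given in the sources used here, and PCR copies counted as reads would make the intervals too narrow. The calling rule was run on simulated counts that held counting error alone, so that run says nothing on spread between cultures or PCR copies. Alternatives were TMM, DESeq2 (1.42.0) size factors, the authors' constants, totals without the 5 most abundant miRNAs, other pseudocounts and other count minimums.

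Named miRNAs are the 4 members, other listed miRNAs with their seed, other arms of their hairpins, miRNAs with an offset seed, and the nearest 2 to each member. The arms of Mir301b were added after their values were seen and matched by name. The members and lists were chosen with earlier results of these data known. Sequences are from RefSeq (GRCm38.p6), and hairpins were placed in the GENCODE M21 annotation of the same assembly.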

Additional observations from a re-analysis of the deposited data

How the results depend on the processing

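Of 43 values recomputed under an alternative, 38 stayed within the counting interval of the reported value or within 1.5 times the reported count, and no called member changed direction. Scaling by the authors' constants put miR-130b-3p at 0.074 and the summed 3p seed at 0.10 on the log2 scale, both on the other side of 0, and gave 80 miRNAs higher in mOC in place of 49. This follows from its construction, which shifts every ratio by 0.27. Without the most abundant member, the summed seed stood at 0.48. A minimum of 50 counts in a library left 35 miRNAs lower in place of 69, since fewer were eligible. miR-130a-3p ran from -1.76 to -1.41 and miR-130b-5p from 1.62 to 1.94 over all alternatives. miR-301a-3p passed the 2-fold threshold only with the authors' constants. Alternatives chosen after seeing the data were the summed seed with miR-301b-3p added (-0.11), without miR-130a-3p (-0.16) and with the 5 most abundant miRNAs out of the totals (-0.23). Wilson intervals of the Mir130b arm shares were 97.5 to 98.5% in pOC and 92.3 to 94.0% in mOC, against the same exact bounds after rounding. No paired analysis was possible because each group was 1 library. Depth limits miR-130a-3p most, at 13 counts in mOC.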
